A study of Macaca mulatta with 144 samples.

Results

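The miR-133 family was followed in the serum of irradiated rhesus macaques through 2 members, mml-miR-133a and mml-miR-133c-3p, written miR-133a and miR-133c-3p from here on. They are the rows of those names in a count table of 908 macaque miRNAs, and were taken by name. Small RNA was sequenced from the serum of 36 NHPs, 19 males and 17 females, of which 6 each received total-body gamma irradiation (TBI) of 6, 6.5, 7, 7.5, 8 or 8.5 Gy. Each animal gave 1 library before irradiation and 1 on each of days 1, 2 and 6 after it, 144 libraries in all, so the unirradiated reference was the same animals before TBI and no separate sham group entered the comparisons. The main test compared the time points without pairing libraries by animal, and values with the animal as a term are given where they move a call or a size. The labels give 15 animals as survived and 21 as deceased. Survivors were 4, 3, 2, 4, 1 and 1 of 6 from the lowest to the highest radiation dose (RD). Radiation is the single treatment the labels name, and ages are stated as a range over all animals, not per animal.

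miRNAs are short RNAs that guide Argonaute proteins to partly complementary messenger RNAs and lower their stability and translation. miR-133 is made mainly in skeletal and heart muscle, from genes that lie beside those of the miR-1 and miR-206 family, and in mice it restrains serum response factor. Because few other tissues make it, it appears in blood when muscle fibres or heart muscle cells release RNA. In the macaque reference annotation of the T2T-MMU8v2.0 assembly, used here for names and neighbours alone, the nearest miRNA gene to MIR133A was MIR1-2, that to MIR133C was MIR1-1 and that to MIR133B was MIR206. The mature sequences of family members are nearly identical, so the deposited counting, which allowed mismatches, could have shared reads between miR-133a, miR-133b-3p and miR-133c-3p. The split between these rows is uncertain.

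Levels are given as CPM, the counts brought to a common library size with TMM factors, which balance libraries on their shared miRNAs. Library totals ran from 11174 to 4118400 with a median of 280254, and 7 libraries had less than 10% of that median. The red blood cell miRNAs miR-486, miR-451 and miR-144 took between 38.8% and 93.4% of a library (median 72.4%). A pair of libraries, the pre-irradiation library of RA2265F and the day 1 library of RA2694M, held identical counts for every miRNA (82153 in all, 17 of miR-133a and 2 of miR-133c-3p), so at most 1 of them can be the sample its label names. Leaving out that pair changed no edgeR call of a member, but the paired sign-flip test was not rerun without it. Leaving out the 7 libraries of low total changed no call of a member. A pre-irradiation library titled RA2816M carries another animal number in its description and was used under its title.

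miR-133a was counted in 113 of 144 libraries, 4385 counts in all and at most 526 in a library. miR-133c-3p was rarer, with a count in 76 libraries, 662 counts in all and at most 112. Libraries without miR-133a were shallower in the median, with a total of 95846 against 354473 in libraries that had it, though their totals reached 1840800. Taking 3 counts as the limit, a count of 0 allows a median of 31.3 CPM of the unscaled library total in these libraries, from 1.63 CPM in the deepest to 268 CPM in the smallest, so 0 is not absence. On the TMM scale the limit of a library moves with its factor, which ran from 0.0907 to 3.91. These limits, like the intervals given for single libraries, cover counting error only. Tests were run on the 290 miRNAs seen in 40% of libraries or more, and both members passed that filter.

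Before irradiation serum held little miR-133a, with levels of 0 to 251 CPM and a median of 5.50 CPM in 36 animals. On day 1 the levels were 0 to 494 CPM with a median of 55.6 CPM. On day 2 they were 0 to 135 CPM with a median of 21.3 CPM, and on day 6 they were 0 to 859 CPM with a median of 6.28 CPM. The range overlapped at all 4 time points, and the median rose on day 1 and was back near its starting value on day 6. miR-133a had no count in 9 animals before irradiation, in 6 on day 1, in 7 on day 2 and in 9 on day 6.

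miR-133a was higher on day 1 than before irradiation by 2.04 on the log2 scale (SE 0.46), or 4.12-fold, with an edgeR quasi-likelihood adjusted p of 0.00147. This was 1 of 14 miRNAs called higher among the 290 tested (4.83%, with 1.72% called lower), and its rise was the third largest of them after miR-375 and miR-141-3p. The median of all tested miRNAs was 0.02. The call was made under every edgeR and DESeq2 alternative tried, with values from 1.93 to 2.49, among them 1.94 without the libraries of low total (adjusted p = 0.00315), 2.18 without the identical pair (0.000545) and 1.93 with the family's rows summed into 1 (0.00334). It also held when each animal was left out in turn (1.74 to 2.56, largest adjusted p = 0.0108).

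Within animals, 27 of 36 had more miR-133a on day 1 than before irradiation, 8 had less and 1 had the same value. The rises of RA2705M, RA2021F, RA2816M, RA2445M, RA2284F and RA2689M rest on 1 or 2 counts on day 1, under the limit of 3. The falls of RA2318M and RA2742F rest on 1 count before irradiation and 0 on day 1. By unscaled totals RA2740F, RA2576M and RA2257F fell and RA1547M rose, each turned from the TMM scale. RA2694M on day 1 and RA2265F before irradiation are the identical pair. The mean change was 2.24 ± 3.25 (SD, n = 36) in log2(CPM + 1), with a sign-flip permutation p of 0.00034 and an adjusted p of 0.0247 over the 290 miRNAs, of which 2 (0.69%) were called higher by this test. With library totals in place of TMM factors this paired change was 1.92 and its adjusted p was 0.263. The spread between animals was wide, from a fall of 5.28 to a rise of 7.66. The day 1 library was the highest of an animal's 4 libraries in 18 animals, the day 2 library in 9, the day 6 library in 5 and the pre-irradiation library in 4.

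**Figure D1:**
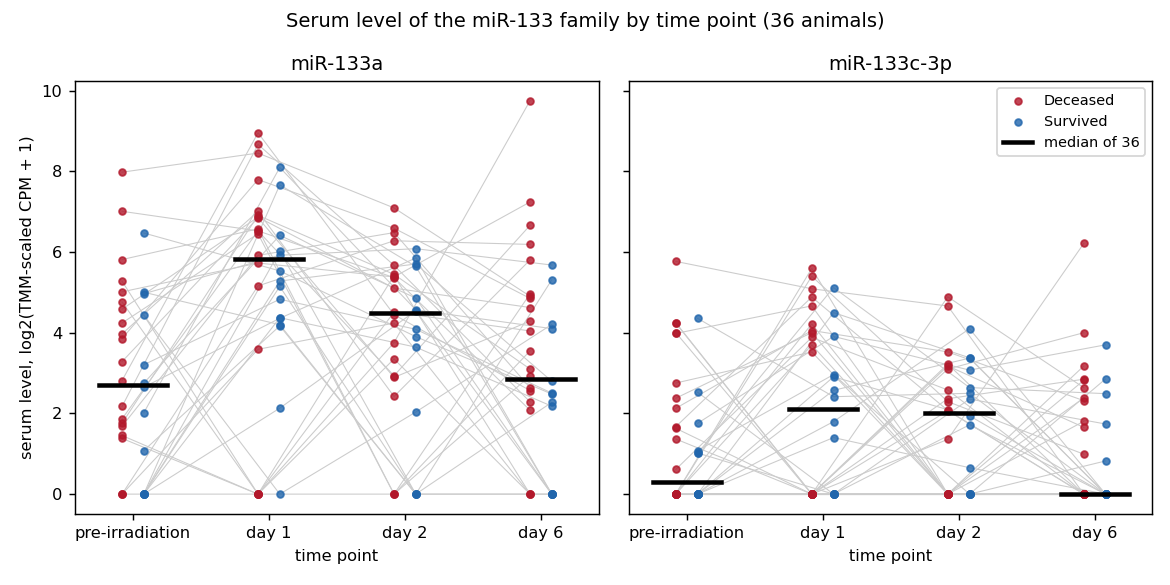
Serum level of miR-133a (left) and miR-133c-3p (right) as log2(TMM-scaled CPM + 1) against time point, with 1 point per animal coloured by survival label, grey lines joining the libraries of an animal and a black bar at the median of 36. The median of miR-133a stood highest on day 1, and at each time point some animals had no count and lie at 0.

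The 3 highest day 1 libraries on the TMM scale were those of RA2685M (8.5 Gy), RA2598M (8 Gy) and RA2475M (8.5 Gy), at 494, 405 and 349 CPM, from animals labelled deceased. The next was RA2596M (8 Gy, survived) at 272 CPM. By unscaled totals the third was RA2709M (7.5 Gy, survived) at 563 CPM, ahead of RA2598M at 427 CPM. RA2685M went from 6.03 CPM before irradiation to 494 CPM on day 1, and then to 20.8 CPM on day 2 and 4.92 CPM on day 6. The day 1 value rests on 420 counts of 266395, or 1577 CPM of the unscaled library total (95% exact binomial interval 1430 to 1735). RA2598M went from 3.50 to 405 CPM and then to 49.8 and 3.88 CPM. Both animals were highest on day 1 and still above their own first library on day 2, while RA2475M already held 251 CPM before irradiation.

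miR-133c-3p ran at a lower level with the same order of medians for the first 3 time points. The unirradiated serum had a median of 0.264 CPM (0 to 53.4). The medians after TBI were 3.40 CPM on day 1 (0 to 47.3), 3.01 CPM on day 2 (0 to 28.6) and 0 CPM on day 6 (0 to 73.1). The ranges overlapped throughout, and 16 to 22 of 36 animals had any count at a time point. Day 1 stood 1.21 above pre-irradiation on the log2 scale (SE 0.43, edgeR adjusted p = 0.0707), which did not pass the threshold. With the animal as a term in the model, a replicate block, the difference was 1.95 (SE 0.45, adjusted p = 0.00147) and passed, as 1 of 10 miRNAs called higher there (3.45%). It also passed with library totals (1.73, adjusted p = 0.0295), without RA2257F, and without RA2475M (1.91, adjusted p = 0.00178), whose pre-irradiation library held 112 of the 186 counts of that time point. Without the identical pair it was 1.25 (adjusted p = 0.0661), and without the libraries of low total 1.09 (0.16). The paired change was 0.84 ± 2.56 (SD, n = 36), with 18 animals higher, 9 lower and 9 equal (sign-flip adjusted p = 0.44).

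From day 1 to day 2 miR-133a fell by 1.55 on the log2 scale (SE 0.46, edgeR adjusted p = 0.0272), 1 of 12 miRNAs called lower (4.14%). This call was less stable than the day 1 rise. With the animal as a term the difference was -1.23 (adjusted p = 0.132), with DESeq2 -1.46 (0.053) and with library totals -1.74 (0.0501), and it was lost on leaving out any 1 of 8 animals, at most to -1.23 (adjusted p = 0.15) without RA2685M. The other animals were RA2445M, RA2576M, RA2691M, RA2596M, RA2694M, RA2733F and RA2116F. For miR-133c-3p the difference was -1.0 (SE 0.44, adjusted p = 0.277).

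By day 6 the comparisons moved with 2 animals, RA2318M and RA2475M. The day 6 library of RA2318M, an animal of 8.5 Gy labelled deceased, held 188 counts of miR-133a in 218629, which is 859 CPM after scaling or 860 CPM of the unscaled total (95% exact binomial interval 741 to 992), the highest level of the 144 libraries. Its earlier libraries held 1, 0 and 8 counts. With it, miR-133a on day 6 stood 1.02 above pre-irradiation (SE 0.47, adjusted p = 0.199, where 6.55% were called, 4.83% higher and 1.72% lower) and 1.02 below day 1 (log2 difference -1.02, SE 0.46, adjusted p = 0.24, where 2.41% were called and 1.38% were lower). Without that animal, day 6 was level with pre-irradiation at -0.10 (adjusted p = 0.919) and below day 1 by 2.18 on the log2 scale (log2 difference -2.18, adjusted p = 0.000306), 1 of 8 called lower (2.76%). Without RA2475M, whose pre-irradiation library was the highest of its time point, day 6 stood 1.66 above pre-irradiation (adjusted p = 0.0331, with 14 miRNAs called higher, 4.83%). With all animals and the animal as a term, day 6 was below day 1 by a log2 difference of -1.77 (adjusted p = 0.0174) and stood 0.67 above pre-irradiation (adjusted p = 0.561).

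For miR-133c-3p, day 6 was below day 1 by a log2 difference of -1.23 (SE 0.47, adjusted p = 0.123). The difference was -1.60 with the animal as a term (adjusted p = 0.04), -1.79 with library totals (0.043) and -1.89 without RA2318M (0.00345), each past the threshold. Against pre-irradiation it was -0.02 (SE 0.38). Day 2 against pre-irradiation did not pass the threshold for either member (0.49, SE 0.46, for miR-133a and 0.21, SE 0.45, for miR-133c-3p, where 0.69% of miRNAs were called). With the animal as a term these differences were larger, at 1.20 (SE 0.46, edgeR adjusted p = 0.175) and 1.02 (SE 0.46, adjusted p = 0.273), and did not pass either. Day 6 against day 2 was 0.53 (SE 0.47) and -0.23 (SE 0.47), and with the animal as a term -0.53 and -0.67. In order of median level, miR-133a ran day 1, day 2, day 6 and pre-irradiation, and of these neighbours only day 1 and day 2 differed by the main test. By unscaled totals the last pair changed places, with medians of 7.62 CPM on day 6 and 9.07 CPM before irradiation.

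**Figure D2:**
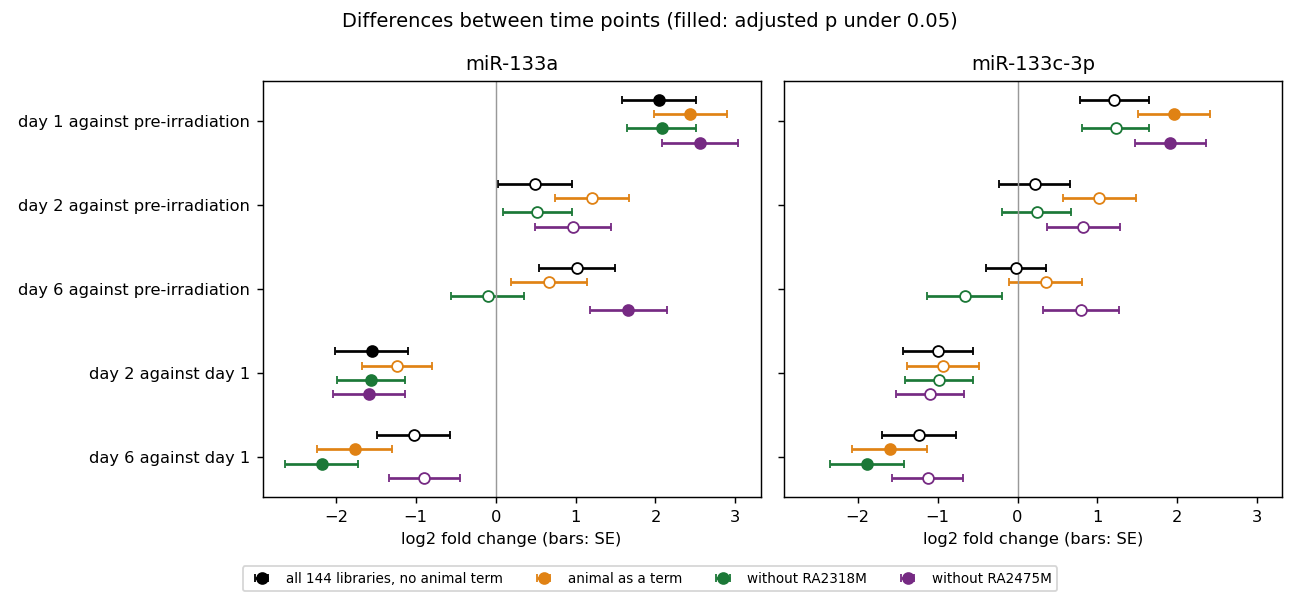
Log2 fold change between time points for miR-133a (left) and miR-133c-3p (right), each with its SE, from the fit of all 144 libraries, the fit with the animal as a term, and fits without RA2318M or RA2475M; filled symbols passed an adjusted p of 0.05. The day 1 rise of miR-133a is filled in all 4 fits, whereas the day 6 values move with the fit.

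The members went up and down together across libraries. Both had a count in 75 libraries, miR-133a alone in 38, miR-133c-3p alone in 1 and neither in 30. Their Spearman correlation over the 144 libraries was 0.67, and 0.61 among unirradiated libraries, then 0.82, 0.69 and 0.52 on the 3 later days. The points share library depth and, through the likeness of the sequences, possibly reads, so this is a description. Over all libraries miR-133c-3p made up 13.1% of the counts of the pair. Its share was 17.6% in unirradiated serum, then 11.2% on day 1, 13.5% on day 2 and 12.7% on day 6. In the 20 libraries with at least 50 counts of the pair the share ran from 6.14% to 21.1%, with a median of 10.7%.

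**Figure D3:**
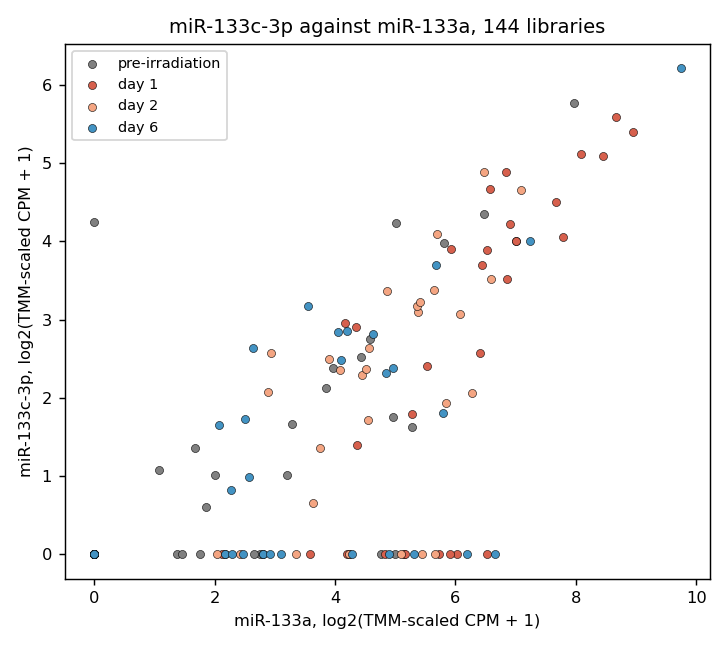
miR-133c-3p against miR-133a, both as log2(TMM-scaled CPM + 1), with 1 point for each of 144 libraries coloured by time point. Libraries high in 1 member tended to be high in the other (Spearman 0.67), and those on the horizontal axis had no count of miR-133c-3p.

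The muscle miRNAs of the table, members included, were looked at as a list of 15 rows. These were the arms of miR-1, miR-133a, miR-133b, miR-133c, miR-206, miR-208a, miR-208b and miR-499. Of these, 9 had a count in some library and 3 passed the filter, the members and miR-499-5p, which lies in the slow myosin gene MYH7B. On day 1, 1 of the 3 was called higher (miR-133a itself) and none lower, beside 4.83% and 1.72% of all tested miRNAs. The median of the 3, 1.21, is the value of miR-133c-3p, beside 0.02 for all tested miRNAs. Among tested rows the list thus adds only miR-499-5p to the members' own results, and that row was not called. miR-499-5p had a count in 18, 17, 15 and 10 of 36 animals from pre-irradiation to day 6 and changed by 0.81 on day 1 (SE 0.42, adjusted p = 0.372) and by -1.29 from day 1 to day 2 (SE 0.45, adjusted p = 0.0759, under 0.05 on leaving out RA0521F, RA1938M or RA2318M). From day 1 to day 2, 1 of the 3 was called lower, again miR-133a itself, beside 4.14% of all. The median was the value of miR-499-5p, -1.29, beside -0.06 for all.

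miR-208b-3p, encoded in the slow and cardiac myosin gene MYH7, was in 54 libraries, just under the filter. It had a count in 9 unirradiated animals, then in 19, 15 and 11 on the 3 later days, with mean levels of 1.66 ± 6.08, 10.9 ± 17.9, 2.79 ± 4.70 and 4.17 ± 14.4 CPM (SD, n = 36). In the fit without a filter, which tested 626 miRNAs, it was higher on day 1 by 2.19 (adjusted p = 0.00131) and lower on day 2 than on day 1 (log2 difference -1.67, adjusted p = 0.0313). miR-133b-3p, counted in 21 libraries and 44 times in all, was higher on day 1 there by 1.92 (adjusted p = 0.00135), from 6 counts in 2 libraries before irradiation to 23 in 10. Its difference from day 1 to day 2 was -0.89 (adjusted p = 0.409). In that fit 17 miRNAs were called higher on day 1 (2.72%) and 22 lower from day 1 to day 2 (3.51%).

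The miRNAs of the genes nearest to the miR-133 genes were nearly missing from the counts. miR-1-3p, which is abundant in both heart and skeletal muscle, had 3 counts in 2 libraries. miR-206, which marks skeletal muscle, had 2 counts in 1 library, and miR-208a-3p, which marks the heart, had 1 count in 1 library. miR-133c-5p, the other arm of the miR-133c hairpin, had 9 counts in 7 libraries. The remaining 6 rows of the list, among them miR-499-3p and miR-208b-5p, had none. miR-133a, with 4385 counts, thus stood beside 3 counts of the miRNA whose gene is its nearest neighbour.

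**Figure D4:**
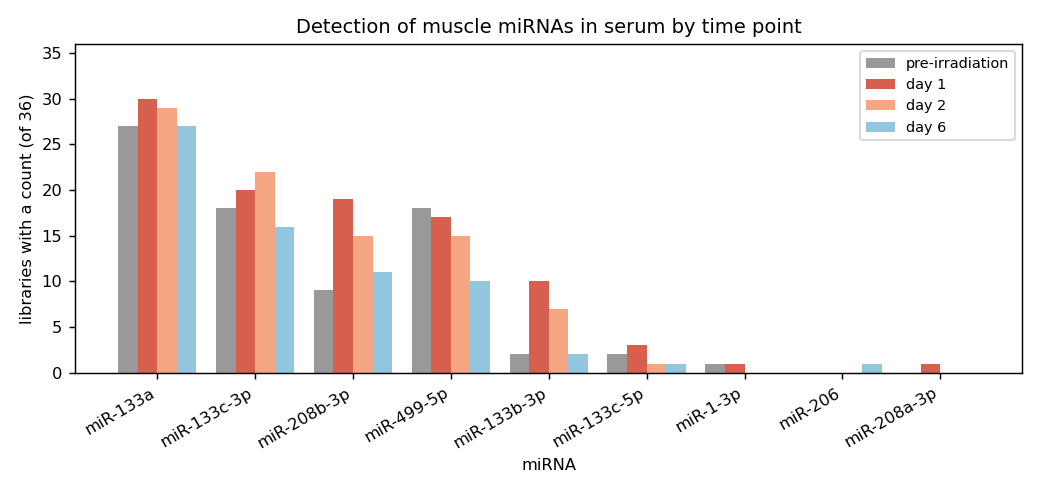
Number of libraries of 36 with a count for the 9 detected rows of the muscle list, by time point. miR-133a was counted in 27 to 30 libraries at each time point, miR-208b-3p in 9 before irradiation and 19 on day 1, and miR-1-3p, miR-206 and miR-208a-3p in at most 1.

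Among the lists of markers of other serum sources, the epithelial list alone had rows called on day 1. None of the tested rows for liver (1), neurons (1), lymphocytes (2) or myeloid cells (1) was called then. All 3 tested rows of the epithelial list of 8 (miR-141-3p, miR-200a-3p and miR-429-3p) rose on day 1 and fell from day 1 to day 2, where 4.83% of all tested miRNAs rose and 4.14% fell, and the summed level of the list was 0 to 204 CPM before irradiation (median 36.6) and 0 to 1015 CPM on day 1 (median 128). Of its untested rows, miR-200c-3p had 18 counts in 7 libraries before irradiation and 10 in 5 on day 1 (means 0.37 and 0.48 CPM). miR-200a-5p had 6 counts in 5 libraries and then 12 in 5. Its miR-200c-5p and miR-141-5p had 1 and 3 counts, and miR-429-5p had 0. Of the red blood cell list, 0 of 4 rows were called on day 1, and the share of a library it took had medians of 70.4% before irradiation and 74.3% on day 1. The haemolysis measure, miR-451 minus miR-23a-3p in log2, was 4.04 ± 1.02 before irradiation and 4.30 ± 1.64 on day 1 (SD, n = 36). With it as a covariate the day 1 rise of miR-133a was 2.02 (adjusted p = 0.00331). None of the 3 tested smooth muscle rows (miR-143-3p and both arms of miR-145) was called on day 1. The part of the epithelial rise in the miR-133a result was not tested.

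Whether the level followed RD was asked at each time point over the 36 animals. On day 1 the mean level of miR-133a in log2(CPM + 1) was 3.87 ± 3.21 at 6 Gy, 4.80 ± 2.47 at 6.5 Gy, 5.63 ± 1.76 at 7 Gy, 5.78 ± 1.46 at 7.5 Gy, 5.54 ± 3.26 at 8 Gy and 4.72 ± 4.00 at 8.5 Gy (SD, n = 6). On this log scale the mean was highest in the middle of the range. The 8.5 Gy group held both the highest day 1 library and 2 animals without a count, RA2318M and RA2742F, in libraries of 44928 and 80610. Mean levels in CPM were 55.7, 51.1, 69.2, 79.8, 146 and 159 from 6 to 8.5 Gy, with SDs of 39.0 to 211. Medians of the unscaled total were 12.5, 38.4, 61.7, 71.4, 125 and 187 CPM, so the order of the doses depended on the measure. The fitted slope was 0.69 per Gy on the log2 scale (SE 0.31, adjusted p = 0.248, with 2 of 290 miRNAs called with a positive slope, 0.69%). For miR-133c-3p the day 1 slope was 0.83 per Gy (SE 0.30, adjusted p = 0.188). Its day 1 means were 1.56, 1.42 and 1.46 at the 3 lower doses and 2.86, 2.45 and 3.01 at the 3 higher ones, with SDs of 1.60 to 2.74.

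Slopes of like size were present before any irradiation. Before irradiation miR-133a had a slope of 0.51 per Gy of the dose still to come (SE 0.34, adjusted p = 0.868) and miR-133c-3p 0.78 (SE 0.38, adjusted p = 0.523). Both rested on RA2475M of the 8.5 Gy group, without which they were -0.30 and -0.03. On day 2 the slopes were 0.26 (SE 0.24) and 0.44 (SE 0.30), where 1.72% of miRNAs were called, all with a negative slope. On day 6 that of miR-133a was 1.03 (SE 0.34, adjusted p = 0.0584, where 5.52% were called, 5.17% with a negative slope), and without RA2318M it was -0.22 (adjusted p = 0.969), while leaving out RA2740F, RA2705M, RA2257F, RA0456F, RA2742F, RA2475M or RA2743F brought it past the threshold (largest value 1.22, adjusted p = 0.0274). That of miR-133c-3p was 0.50 (SE 0.33) and without RA2318M -0.44. miR-499-5p had a day 6 slope of 1.41 (SE 0.39, adjusted p = 0.029), the single positive slope called (0.345%), which was 0.15 (adjusted p = 0.99) without RA2318M and was also lost without RA0724F or RA0521F. That library held 13 counts of miR-499-5p and 18 of miR-208b-3p.

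The slope of the change from pre-irradiation sets the baseline difference aside. It took days 1, 2 and 6 together, so it is not the slope of the day 1 change. This slope was 0.19 per Gy for miR-133a (SE 0.39, 95% interval -0.59 to 0.96) and -0.10 for miR-133c-3p (SE 0.32, -0.73 to 0.54), with edgeR adjusted p of 0.992 for both. With the animal as a term it was 0.69 (SE 0.43) and 0.43 (SE 0.44), with edgeR adjusted p of 0.994 for both. edgeR called 0 of 290 miRNAs here (0%), with 8 at an unadjusted p under 0.05, and DESeq2 called 0 with 6. By dose, the mean day 1 change of miR-133a was 1.66, 1.08, 2.77, 3.76, 3.68 and 0.48 from 6 to 8.5 Gy, and 4, 4, 5, 5, 5 and 4 of the 6 animals were higher than before. On the TMM scale a rise in most animals was thus seen at each dose, with SDs between 2.45 and 3.73 within a dose. By unscaled totals RA2740F (6 Gy) fell from 82.3 to 18.4 CPM, so the tally at 6 Gy depends on the scaling. RA2576M (6.5 Gy) and RA2257F (7 Gy) also fell by unscaled totals, while RA1547M (6.5 Gy) rose. Some of the rises rest on 1 or 2 counts. Falls at 8.5 Gy do too, since RA2318M went from 1 count in 43377 to 0 in 44928 and RA2742F from 1 count to 0.

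**Figure D5:**
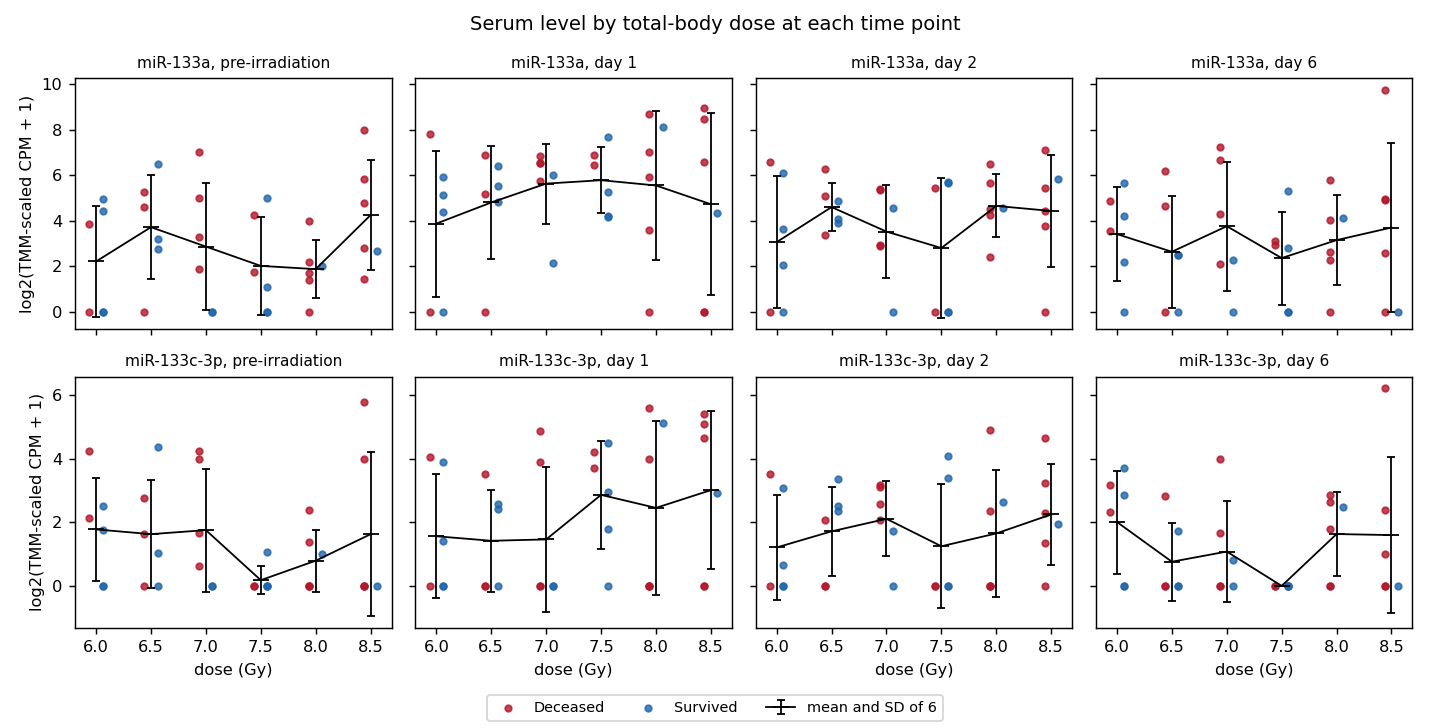
Level of miR-133a (top) and miR-133c-3p (bottom) as log2(TMM-scaled CPM + 1) against RD in Gy at the 4 time points, with 1 point per animal coloured by survival label and the mean and SD of 6 animals in black. Most groups of 1 dose span a wide range of miR-133a, all 6 animals at 7.5 Gy lie at 0 for miR-133c-3p on day 6, and the highest day 6 point of each member, at 8.5 Gy, is RA2318M.

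The slopes of males and females were compared because the study describes miR-133a as a marker in males. Dose and sex were unevenly mixed, with 1 female at each of 7.5 and 8 Gy and 1 male at 7 Gy. The male slope of the change exceeded the female slope by 0.14 per Gy for miR-133a (SE 0.94, 95% interval -1.70 to 1.97) and by -0.13 for miR-133c-3p (SE 0.56, -1.23 to 0.97), with adjusted p of 0.997. edgeR called 0 of 290 (0%), with 7 at an unadjusted p under 0.05, as did DESeq2. On day 1 the level of miR-133a ran from 0 to 221 CPM in 17 females (median 59.5) and from 0 to 494 CPM in 19 males (median 45.2), and 12 females and 18 males had a count. The order of the sexes depended on the measure, since medians of the unscaled total were 39.6 CPM in females and 65.7 CPM in males, and means in log2(CPM + 1) were 4.22 ± 3.06 (SD, n = 17) and 5.81 ± 2.17 (n = 19).

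On the TMM scale the median of miR-133a was higher in animals labelled deceased than in survivors at each time point, and by unscaled totals at all but day 2 (27.4 CPM in deceased, 30.3 CPM in survivors). No survival difference passed the test. Before irradiation the medians were 8.73 CPM in 21 deceased and 3.04 CPM in 15 surviving animals, on day 1 they were 90.8 and 34.4 CPM, on day 2 they were 21.8 and 15.96 CPM and on day 6 they were 15.5 and 3.84 CPM. The ranges overlapped each time, and on day 6 there was a count in 18 of 21 deceased and 9 of 15 surviving animals. Since deceased animals had on the whole received more radiation, survivors were compared with deceased animals of the same dose. Survivors then differed by -0.96 (SE 0.87), -0.81 (SE 0.65), -0.77 (SE 0.49) and -1.01 (SE 0.83) on the log2 scale from pre-irradiation to day 6, with adjusted p of 0.989, 0.993, 0.995 and 0.603. The 4 values come from the same animals and are not independent.

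For miR-133c-3p the same comparison gave -1.59 (SE 1.01), -0.74 (SE 0.61), -0.64 (SE 0.66) and -0.62 (SE 0.76), with none past the threshold. edgeR called 0 of 290 miRNAs at each time point (0%), with 18, 2, 7 and 36 at an unadjusted p under 0.05, and DESeq2 called 0 as well. With library totals the survival difference of miR-133a before irradiation was -0.08 (SE 0.99), and the median of all tested miRNAs moved from 0.05 to 0.67. The change from pre-irradiation was compared between survival labels without matching for dose, although deceased animals had on the whole received more radiation. This change did not differ beyond its error, at 0.07 for miR-133a (SE 0.70) and 1.21 for miR-133c-3p (SE 0.78, adjusted p = 0.994 for both). The mean day 1 change of miR-133a in log2(CPM + 1) was 2.77 ± 3.22 in survivors (SD, n = 15) and 1.86 ± 3.29 in deceased animals (n = 21).

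The miRNAs whose levels were most like those of the members were taken by Spearman correlation over the 144 libraries. For miR-133a they were miR-133c-3p (0.67), miR-378d (0.54), miR-375 (0.48), miR-532-5p (0.46) and miR-378a (0.46), beside a median of 0.13 over the 289 other tested miRNAs. For miR-133c-3p they were miR-133a (0.67), miR-378d (0.51), miR-378a (0.49), miR-497-5p (0.46) and miR-29c-3p (0.46), beside a median of 0.19. In human and mouse miR-378a lies in the gene of the coactivator PGC-1beta, and miR-375 is made in endocrine cells of pancreas and gut. After each animal's own mean was removed the correlations with miR-378d were 0.55 and 0.45 and that of miR-133a with miR-375 was 0.56. The muscle miRNA miR-499-5p ranked at 57 of 289 for miR-133a (0.28) and at 87 for miR-133c-3p (0.26).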

How the data were processed

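Per the labels and the study's methods, serum small RNA was made into libraries with a TruSeq small RNA kit and demultiplexed with bcl2fastq, and the authors deposited raw counts of reads per mature miRNA, matched to miRBase with mismatches allowed in Genomics Workbench. The genome build is not given in the sources used here, and nothing states a sequencing batch. All 144 columns were used. miRNAs seen in 40% of libraries or more (290 of 626 with any count) were fitted with edgeR 4.0.16 in R 4.3.3 (quasi-likelihood test, TMM factors, adjusted by Benjamini-Hochberg over the 290, threshold 0.05). Slopes used RD in Gy, and survival at each time point was compared with dose as 6 levels. The change by survival was fitted without a dose term. SE is the log2 value over the square root of F. Intervals are 95%. Paired changes in log2(CPM + 1) were tested by 100000 two-sided sign flips. Animal names in the labels pair the libraries. Deviations from time-point means correlated at 0.08 within an animal and 0.01 between animals, and the study's methods name no pairing, so the animal entered as an alternative. The labels give 1 library per animal and time point, so animals are the replicates. The fits were tested on simulated data. Alternatives were library totals, DESeq2 1.42.0, its size factors, totals without red blood cell miRNAs, no filter or 60%, a replicate block, a haemolysis covariate, a pseudocount of 10, and leaving out low-total or identical libraries or each animal. Summing the family's rows into 1 was an alternative chosen after seeing the data. Named miRNAs were the members, the muscle list and the 5 most similar to each member. Members and lists were chosen with earlier results of these data known.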

Additional observations from a re-analysis of the deposited data

Results flagged for a closer look

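Each member was looked at for a stray animal in its 24 groups of 6 animals of 1 dose and time point, 48 groups in all, and 3 had one. A rate of about 1 in 20 groups is given by chance. On day 1 at 6.5 Gy, RA1782F had no count of miR-133a in a library of 93217, a level of 0 in log2(CPM + 1). The other 5 animals lay between 4.83 and 6.86. Taking 3 counts as the limit, the count of 0 allows up to 32.2 CPM of the unscaled total, a scale other than that of the levels. Among the others, RA2705M had 1 count and RA2576M had 4, or 3.61 and 6.56 CPM of the unscaled total. Both lie under that limit, so no difference from them can be read. On day 1 at 7 Gy, RA2021F had 1 count in 354473, a level of 2.13, and the others lay between 5.73 and 6.85. Before irradiation at 7.5 Gy, RA2592M was the single animal with a count of miR-133c-3p, 1 in a library of 1018280, a level of 1.08 beside 0 in the other 5. That count is under the limit of 3, its library was the deepest of the group, and the zeros allow 7.93 to 124 CPM of the unscaled total, so no difference can be read from it. The causes were not tested.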

How the results depend on the processing

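Apart from leaving out single animals, 320 values of the members were recomputed under alternatives, and 293 kept their direction and their side of the threshold. The day 1 rise of miR-133a was called in each edgeR or DESeq2 alternative. For the replicate block, which pairs libraries by animal, miR-133a gave -1.23 for day 2 against day 1 (call lost), -1.77 for day 6 against day 1 (gained) and, turned in sign, -0.53 for day 6 against day 2 and -0.35 for the change in survivors minus deceased. miR-133c-3p gave 1.95 (day 1 against pre-irradiation, gained), -1.60 (day 6 against day 1, gained), and, turned, 0.35 (day 6 against pre-irradiation) and 0.43 (slope of the change). The block changed no other call. With library totals, miR-133a gave -1.74 (day 2 against day 1, lost), 1.92 (paired day 1 change, lost) and -0.38 (change by survival, turned). miR-133c-3p gave 1.73 and -1.79 (day 1 and day 6, each gained) and, turned, 0.10 (slope of the change), 0.70 (males minus females) and 0.53 (survival, day 6). Totals moved the median of all miRNAs from -0.04 to -0.38 for day 6 against pre-irradiation. Totals without red blood cell miRNAs turned miR-133c-3p to 0.0087 (slope of the change), 0.0989 (males minus females) and 0.11 (survival, day 6). DESeq2 gave -1.46 for miR-133a from day 1 to day 2 (lost) and turned miR-133c-3p to 0.15 (day 6), 0.0333 (slope of the change) and 0.46 (survival, day 6). The haemolysis covariate turned miR-133c-3p on day 6 to 0.0195. Leaving out low totals turned the male minus female slope of miR-133a to -0.0532, and leaving out the identical pair turned its change by survival to -0.12 and miR-133c-3p on day 6 to 0.0271. The causes were not tested.

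The number of miRNAs called on day 1 was 19, and 6 with library totals, 12 with DESeq2 size factors, 7 without red blood cell miRNAs, 11 with DESeq2, 12 with the 60% filter, 12 without low totals and 11 with the haemolysis covariate (8 to 20 without single animals, 8 without RA2596M). From day 1 to day 2 it was 14, and 5, 7 (DESeq2), 35 (no filter), 8 (60%), 7 (block) and 8 (haemolysis), with 5 to 16 without single animals. The share called higher on day 1 was 73.7%, and 58.3% with DESeq2 size factors and 57.1% without red blood cell miRNAs.

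Leaving out each animal gave these ranges. For miR-133a they were 0.37 to 0.97 (day 2 against pre-irradiation), -1.64 to -1.23 (day 2 against day 1), -2.18 to -0.77 (day 6 against day 1), -0.10 to 1.66 (day 6 against pre-irradiation), -0.62 to 0.69 (day 6 against day 2), -0.30 to 0.64 (slope before irradiation), 0.55 to 1.05, 0.0456 to 0.53 and -0.22 to 1.22 (slopes on days 1, 2 and 6), -0.12 to 0.93 (slope of the change), -0.82 to 1.96 (males minus females) -1.55 to -0.60, -1.19 to -0.27, -0.97 to -0.40 and -1.48 to -0.64 (survival at the 4 time points) and -0.63 to 0.61 (change by survival). For miR-133c-3p they were 0.94 to 1.91 (day 1), -0.0135 to 0.82 (day 2), -0.66 to 0.79 (day 6), -1.20 to -0.74 (day 2 against day 1), -1.89 to -1.01 (day 6 against day 1), -0.90 to -0.0325 (day 6 against day 2), -0.0313 to 0.93 (slope before irradiation), 0.75 to 1.09, 0.20 to 0.68 and -0.44 to 0.75 (slopes on days 1, 2 and 6), -0.30 to 0.63 (slope of the change) -1.45 to 2.01 (males minus females), -2.15 to -0.92, -1.20 to -0.53, -0.80 to -0.0178 and -0.91 to -0.17 (survival at the 4 time points) and 0.44 to 1.66 (change by survival). The lowest or highest value came from RA2318M or RA2475M for most comparisons of time points. The 60% filter removed miR-133c-3p, and the block could not be fitted within a single time point. Depth limits these values, since most libraries held under 5 counts of miR-133c-3p.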

Other observations

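The muscle miRNAs differed in how far they were high together in the libraries with most miR-133a. The day 6 library of RA2318M held 188 counts of miR-133a, 16 of miR-133c-3p, 2 of miR-133b-3p, 13 of miR-499-5p and 18 of miR-208b-3p. The pre-irradiation library of RA2475M held 526, 112, 5, 21 and 74, in a deep library of 2893990 counts. The day 1 library of the same animal held 243, 23, 2, 3 and 3, and that of RA2598M held 137, 16, 3, 3 and 13. The day 1 library of RA2709M (7.5 Gy, survived) held 168, 18, 2, 9 and 38. Of the 8 libraries highest in miR-133a by TMM-scaled level, 6 were of day 1 and 7 of 8 were from males, in a study of 19 males and 17 females. Both of these libraries of RA2475M are among them. The scaling matters here. By unscaled totals the day 1 libraries of the females RA2745F, RA0521F and RA2116F held 386, 345 and 315 CPM. They stood above that of RA2596M on day 1 (238 CPM) and that of RA2475M before irradiation (182 CPM).

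The order of the animals was compared between time points. For miR-133a the Spearman correlation over 36 animals was 0.42 between pre-irradiation and day 6, 0.31 between day 1 and day 2 and 0.01 between pre-irradiation and day 2. For miR-133c-3p it was 0.46 between pre-irradiation and day 6 and -0.15 between day 1 and day 6. No animal lacked miR-133a in all 4 libraries, while 3 had no miR-133c-3p in any. These correlations are descriptions, since depth varies between an animal's libraries.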
